A study of Mus musculus with 4 samples.

Results

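The ventral wall of the trachea was compared between 1 library of Ctnnb1 knockout mice and 1 library of control mice, with the cells divided into epithelial, immune and other compartments, so that a shift present in every compartment can be told from a shift limited to the epithelium. The series holds 4 single-cell libraries of mouse trachea, 1 each for the dorsal and the ventral wall of controls and knockouts. All mice carried P63-CreER, Ki67-lsl-Dre and Rosa26-rsr-GFP, and all were given tamoxifen. Controls were Ctnnb1-fl/+ and knockouts Ctnnb1-fl/fl, so the controls too could lose 1 allele in the cells that express the Cre. The P63 promoter limits Cre to cells that express or once expressed P63, in the airway the basal cells, and the reporter needs Cre first and then Dre, which is driven from the Ki67 locus of a dividing cell. Tracheae were taken 10 days after tamoxifen and the walls separated by microdissection. How many mice went into a library, their age and sex, when in the day they were killed and which exons are removed is not given in the sources used here.

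Barcodes were kept with at least 500 detected genes and at most 15% mitochondrial UMIs (unique molecular identifiers, each counting 1 captured RNA molecule). This kept 9744 of 11150 barcodes of the control and 6726 of 7668 of the knockout ventral library, or 16470 of the 35901 kept in the whole series. A cell was epithelial with at least 1 UMI of Epcam, an epithelial surface adhesion molecule, and none of Ptprc, the pan-leukocyte antigen CD45. It was immune with Ptprc and no Epcam, and other with neither. The 3 compartments held 16318 cells, and 94 control and 58 knockout cells with both genes were set aside.

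β-Catenin, the product of Ctnnb1, links cadherins to the actin skeleton at cell junctions and carries the Wnt signal into the nucleus. Basal cells are the stem cells of the pseudostratified airway epithelium and give rise to secretory and multiciliated cells. Leukocytes and stromal cells do not express P63, so a shift that they share with the epithelium is seen in cells outside the Cre driver as well. With 1 library a side, genotype and any other difference between the libraries cannot be told apart, no test is possible, and every interval below is a 95% interval for counting error only.

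The knockout library held a smaller share of epithelial cells and a larger share of other cells than the control library. Epithelial cells were 4899 of the control barcodes, or 50.3% (49.3 to 51.3, exact Clopper-Pearson), and 2736 of the knockout barcodes, or 40.7% (39.5 to 41.9). Immune cells were 5.65% (5.20 to 6.13) and 5.62% (5.08 to 6.2), from 551 and 378 cells. Other cells were 43.1% (42.1 to 44.1) and 52.8% (51.6 to 54.0), from 4200 and 3554 cells. A single UMI of Epcam decides the gate, so the shares depend on depth. With each cell thinned to 3000 UMIs the epithelial share was 38.5% and 30.2% and the other share 56.3% and 64.7%, and 1002 control and 557 knockout cells were too shallow to enter. The order of the libraries was the same with and without thinning. In sums over cells, fewer cells of a type and less RNA per cell cannot be told apart.

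The markers bear out the gates only in part. Krt5, the basal keratin, had a UMI in 33.7% of control and 35.3% of knockout epithelial cells and in 1.26% of the other cells of the control. C1qa, a macrophage complement gene, had a UMI in 33.9% of control immune cells. Col1a2, a fibrillar collagen chain, had a UMI in 65.4% of control other and 8.02% of control epithelial cells. Dcn, a matrix gene, had one in 66.8% of control other and 43.8% of control epithelial cells, and at least 3 in 58.3% and 28.3%. Pecam1, an endothelial marker, had a UMI in 30.2% of control other and 25.6% of control epithelial cells. Foxj1, the master regulator of cilia, had a UMI in 8.64% of control and 4.73% of knockout other cells and at least 3 UMIs in 1.95% and 0.647%, against 2.0% of control immune cells with 1 UMI or more. Secreted airway products were detected almost everywhere: Bpifa1, a secreted airway defence protein, had a UMI in 99.8% of epithelial, 99.1% of immune and 99.6% of other cells of the control. Free RNA in droplets can give such UMIs and was not measured here. Shared and limited classes therefore read a gene only in compartments with at least 10% of its level in the highest compartment. Counts of genes per compartment and per list did not use this free RNA level.

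The summed counts were 150203329 UMIs in control and 101183561 in knockout epithelium, 5229467 UMIs in control and 3984738 in knockout immune cells, 45336243 UMIs in control and 37003726 in knockout other cells. The median cell had 22901 and 25056, 7940 and 8630.5, and 10123 and 9588 UMIs. The ventral libraries shared 25 barcode sequences, 20 of them among kept barcodes. Thyroid tissue was carried along mostly in the control: the summed level of 8 thyroid genes in the epithelium was 2434 against 85.2 CPM, the UMIs of a gene per 1000000 UMIs of the compartment and library.

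Ctnnb1 itself was lower in the epithelium and in other cells of the knockout, by less than 1.5-fold, and its immune interval included 1. Its level was 194.6 CPM in control and 155.1 CPM in knockout epithelium, a ratio of 0.797 (0.781 to 0.812). In other cells it was 152.6 and 132.9 CPM, a ratio of 0.871 (0.839 to 0.903), and in immune cells 81.5 and 77.3 CPM, a ratio of 0.949 (0.817 to 1.10). The median measured gene of the epithelium stood at 0.904 of its control level (log2 -0.15), against 1.02 in both of the other compartments, and relative to it the epithelial Ctnnb1 ratio was 0.882. Among Krt5-positive epithelial cells (at least 3 Krt5 UMIs, 1438 control and 866 knockout cells) the Ctnnb1 ratio was 0.822. The kit counts 5′ ends of transcripts, so a tag outside the deleted exons would still be counted, and the level does not check the deletion.

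A gene counted as shifted where the bound of its knockout to control ratio nearer to 1 was at least 1.5-fold from 1, among genes that reached 20 CPM and 50 UMIs in either library. In the epithelium 5709 genes were measured; 27 (0.473%) were higher and 127 (2.22%) lower in the knockout. Centred on the median gene, the same counts were 41 and 90. Among 6530 genes of the immune cells 114 (1.75%) were higher and 77 (1.18%) lower, and among 7064 genes of the other cells 61 (0.864%) were higher and 154 (2.18%) lower. Immune sums hold the fewest UMIs and can rest on few cells. Jchain, the joining chain of secreted antibodies, stood at 2.68 CPM in control and 1060 CPM in knockout immune cells, and 1 knockout cell held 99.6% of those UMIs.

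Few shifts were shared by all 3 compartments. Of 4103 genes measured above the free RNA level in all of them, 3 (0.0731%) were higher in each compartment of the knockout, and 4 (0.0975%) were lower in each. The higher genes were Sult1a1, Lyz1 and Cxcl13, and the lower ones Lsmem1, Gdf15, Il31ra and the predicted gene Gm56626. They fall into genes spread over many cells and genes carried by a few.

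**Figure D1:**
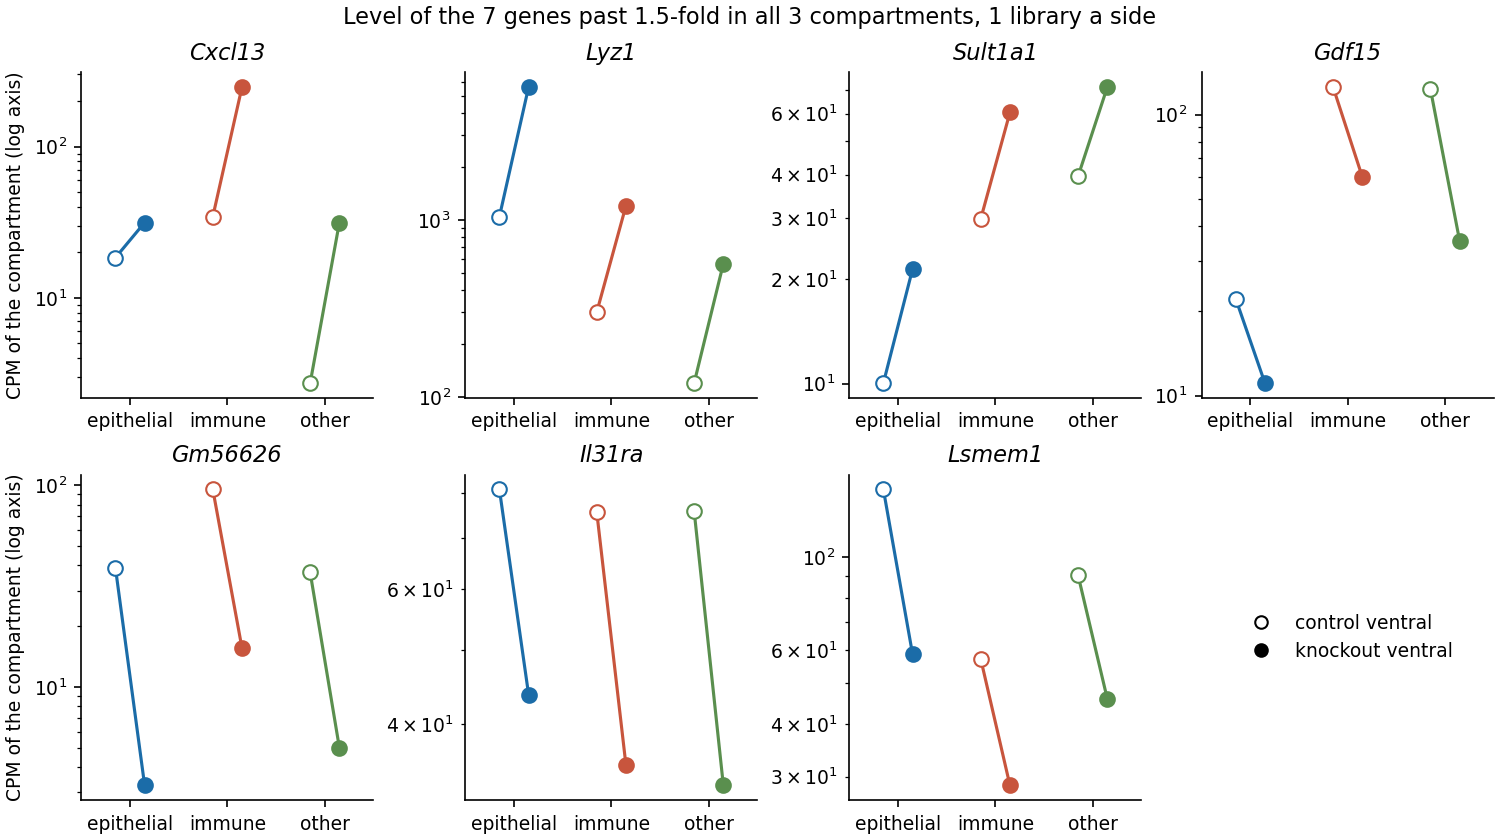
Level of the 7 genes shifted in all 3 compartments, in CPM, on a log axis of its own for each gene. Open points are the control and filled points the knockout ventral library, 1 library each, so no error between animals can be drawn; Gm56626 has the widest gap of the lower genes, 38.9 against 3.25 CPM in the epithelium.

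Sult1a1, a cytosolic sulfotransferase that conjugates phenols, was higher in the knockout by about the same factor everywhere. In the epithelium it stood at 10.0 CPM in the control and 21.4 CPM in the knockout, 2.13-fold (2.0 to 2.28). Immune cells had 29.8 and 60.5 CPM, 2.03-fold (1.65 to 2.5), and other cells 39.6 and 71.6 CPM, 1.81-fold (1.70 to 1.92). It was detected in 933 control and 877 knockout epithelial cells, and no cell held more than 4.56% of the UMIs of its compartment and library. The dorsal pair, made of separate libraries, had ratios of 1.98, 1.82 and 1.68 in the same order of compartments.

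Lsmem1, which encodes a leucine-rich single-pass membrane protein, was lower by a like factor. Its level went from 144.8 to 58.7 CPM in the epithelium, a ratio of 0.405 (0.394 to 0.417). The immune levels were 57.2 and 28.6 CPM (ratio 0.50, 0.40 to 0.623) and the other levels 90.4 and 45.9 CPM (ratio 0.508, 0.480 to 0.538). Its UMIs came from 2718 control and 1300 knockout epithelial cells, and the dorsal ratios were 0.440, 0.552 and 0.254.

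Gm56626, a predicted gene, had the widest gap of the lower genes. It stood at 38.9 and 3.25 CPM in the epithelium (ratio 0.0835, 0.0745 to 0.0933), 95.2 and 15.6 CPM in immune cells (ratio 0.163) and 36.9 and 5.00 CPM in other cells (ratio 0.135). The dorsal pair had ratios of 0.109, 0.0653 and 0.115. Gm56626 met the bound in all 3 compartments under each of 11 other ways of processing the counts, the only one of the 7 genes to do so.

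Il31ra, a subunit of the interleukin 31 receptor, was lower in the ventral knockout and higher in the dorsal knockout. Ventral levels were 80.9 and 43.7 CPM in the epithelium, 75.5 and 35.4 in immune cells and 75.8 and 33.3 in other cells, with ratios of 0.541, 0.468 and 0.439. The dorsal ratios were 4.47, 3.74 and 4.14. Within the ventral control the level was nearly the same in the 3 compartments, and the side of 1 on which the ratio lay differed between the regions.

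The other 3 shared genes rested on few cells or did not keep their direction in basal cells. Lyz1, lysozyme of Paneth and gland cells, went from 1040 to 5624 CPM in the epithelium, from 301.0 to 1202 in immune cells and from 119.5 to 564.6 in other cells, ratios of 5.40, 3.99 and 4.72. The 10 cells richest in Lyz1 held 77.3% of its control and 52.6% of its knockout UMIs in the epithelium, and reads of its close paralog Lyz2, a macrophage and alveolar gene (ratios 2.31, 1.54 and 1.38), may be hard to separate from it. In other cells of the knockout, 564.6 CPM lay just above the 10% free RNA level set by the 5624 CPM of the epithelium. Lyz1 stayed among the shared genes under 7 of the 11 other ways of processing. It dropped out with a stricter barcode filter, with a gate of 2 UMIs, with probable doublets removed and at a free RNA level of 25%. Free RNA as the source of its UMIs outside the epithelium was not tested. The dorsal Lyz1 ratios were 0.785, 4.06 and 0.757. Cxcl13, a chemokine that draws B cells, had ratios of 1.71, 7.20 and 11.5, and its epithelial UMIs came from 35 control and 27 knockout cells. With probable doublets removed its epithelial ratio was 5.55, and within Krt5-positive epithelial cells it was 0.0192, the opposite direction. Gdf15, a cytokine of cell stress, had ratios of 0.501, 0.479 and 0.288, and 1.33 in Krt5-positive cells, and dorsal ratios of 1.54, 0.327 and 0.728.

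Genes of the circadian clock and of the glucocorticoid response were examined next, as systems that act in nearly every cell type. Their lists were chosen with earlier results of these data known, so their counts are a description. In the clock, Clock and Bmal1 (Arntl in the files) or Npas2 drive the Per, Cry, Nr1d and PAR-domain genes (Dbp, Tef, Hlf) through E-boxes, and the Nr1d repressors act back on Arntl and Npas2 through ROR elements. Glucocorticoids induce a set that includes Fkbp5, a chaperone of their receptor, and Tsc22d3.

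Promoter sequences are shown for 2 clock genes, Ciart, a repressor of Clock and Bmal1, and Per3, and for the interferon-stimulated genes Isg15 and Irgm1 described further on, since these are the motifs through which the factors of each list are known to act. Each is the 250 bases before the transcription start as RefSeq gives it on GRCm38.p6, 5′ to 3′ on the strand of the gene. Capitals mark the E-box CACGTG in Ciart, the D-box TTATGTAA in Per3 and the core of the interferon-stimulated response element (GAAA, any 2 bases, GAAA, or the reverse complement) in Isg15 and Irgm1. The 4 were picked after their values were seen, and Ciart was not past the 1.5-fold bound in any compartment.
Ciart (chr3:95882229-95882478, minus strand): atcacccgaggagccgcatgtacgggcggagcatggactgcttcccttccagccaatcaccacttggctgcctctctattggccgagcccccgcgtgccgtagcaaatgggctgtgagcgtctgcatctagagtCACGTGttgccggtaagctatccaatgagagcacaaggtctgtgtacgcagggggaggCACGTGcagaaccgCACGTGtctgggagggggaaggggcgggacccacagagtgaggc
Per3 (chr4:151044666-151044915, minus strand): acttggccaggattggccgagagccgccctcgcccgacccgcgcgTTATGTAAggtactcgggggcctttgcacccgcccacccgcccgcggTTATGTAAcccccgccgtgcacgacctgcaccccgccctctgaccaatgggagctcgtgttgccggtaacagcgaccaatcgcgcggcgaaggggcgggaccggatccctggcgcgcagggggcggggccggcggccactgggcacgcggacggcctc
Isg15 (chr4:156200819-156201068, minus strand): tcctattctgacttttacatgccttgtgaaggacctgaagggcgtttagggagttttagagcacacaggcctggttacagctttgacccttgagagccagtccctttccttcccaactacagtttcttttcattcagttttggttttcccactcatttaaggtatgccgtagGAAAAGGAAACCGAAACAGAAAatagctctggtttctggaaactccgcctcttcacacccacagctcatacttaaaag
Irgm1 (chr11:48871421-48871670, minus strand): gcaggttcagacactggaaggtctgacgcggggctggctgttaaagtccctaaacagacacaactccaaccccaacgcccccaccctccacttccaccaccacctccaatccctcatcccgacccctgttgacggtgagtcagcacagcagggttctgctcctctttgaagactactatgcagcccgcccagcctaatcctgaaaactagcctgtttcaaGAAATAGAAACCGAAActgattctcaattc
Both strands were searched, and overlapping matches run together in Isg15 and Irgm1. Among 17 clock genes matched to a promoter the E-box was found in 5, against 6.02% of all 32851 promoter windows of that length, and the D-box in 1, against 0.819%. The ROR element letters AGGTCA were found in 4, against 14.0%. Dbp, Nr1d1 and Arntl had 0 matches to any of these 3 motifs. Of 24 glucocorticoid-responsive genes 5 had the E-box too, and 4 had the glucocorticoid element ACANNNTGT, against 5.84% of all windows. Of 28 interferon genes 19 had the response element core, against 2.98% of all windows. Genes with several listed starts were counted once, although each start gave a window of its own. A match is a string of letters and not a measured binding site.

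Most clock genes past the bound were lower in the knockout, and they were found mainly among the other cells. Of 20 list members measured (at least 10 UMIs), 8 were past 1.5-fold lower (Per2, Per3, Cry2, Nr1d1, Nr1d2, Dbp, Tef and Bhlhe40) and 1, Npas2, higher among other cells; 2 were lower in the epithelium and 0 of 20 were past it in immune cells. The list median (log2) was -0.24 in the epithelium, -0.24 in immune cells and -0.60 in other cells, against -0.16, 0.04 and 0.01 over all genes with as many UMIs. The share of all such genes past 1.5-fold lower was 0.591%, 0.578% and 0.772%, and past 1.5-fold higher 0.126%, 0.856% and 0.306%. Only genes at 20 CPM and 50 UMIs in either library were open to the bound. Among those genes 2.22%, 1.18% and 2.18% were lower, and 0.473%, 1.75% and 0.864% higher. Of the clock genes 11, 11 and 17 reached 20 CPM.

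**Figure D2:**
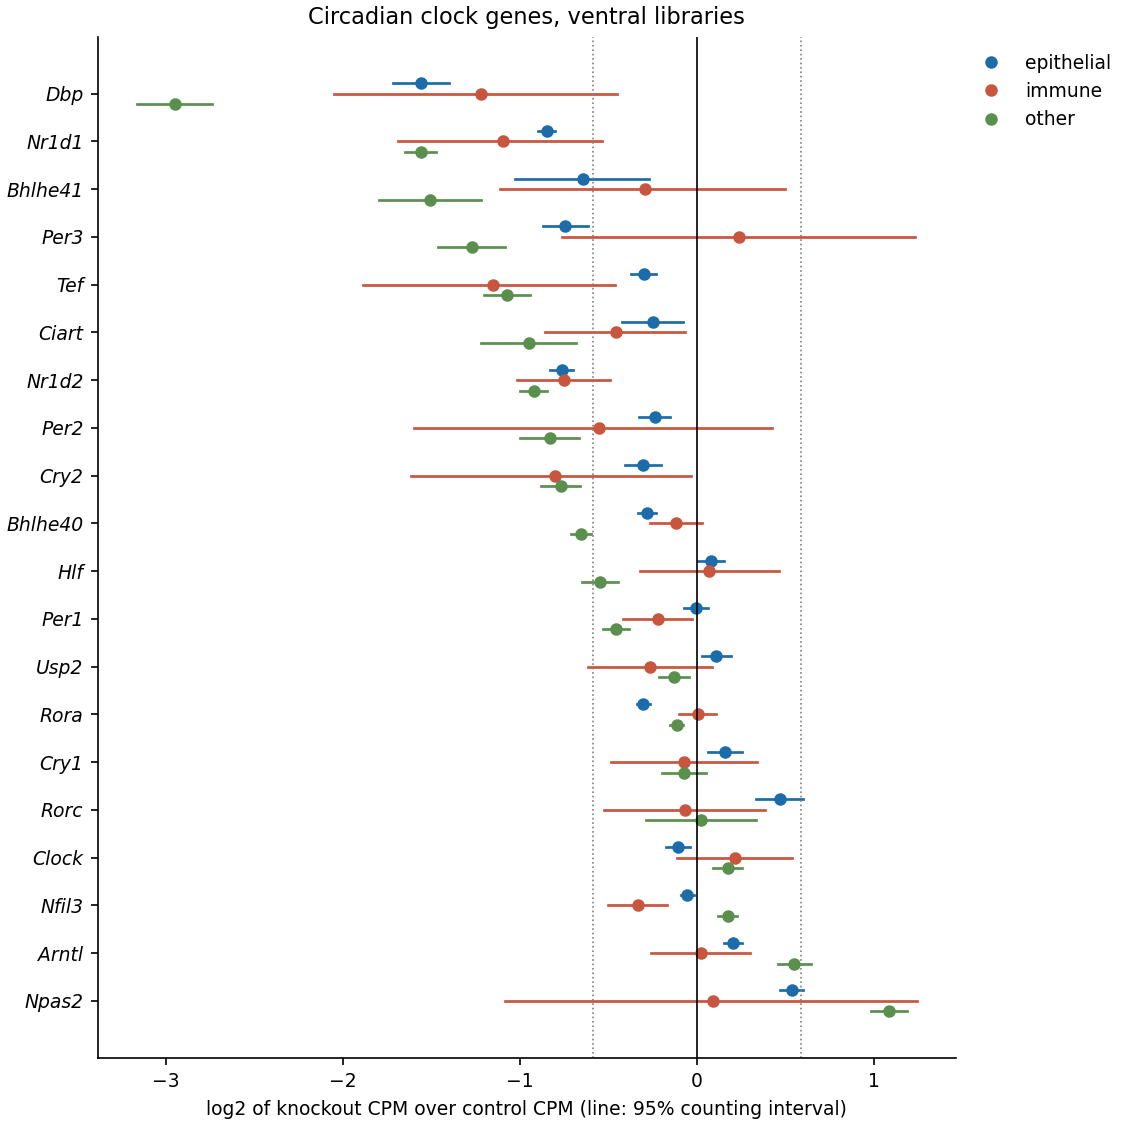
Knockout to control ratio (log2) of the 20 clock genes in the 3 compartments of the ventral libraries, with 95% counting intervals as lines and 1.5-fold either way as dotted lines. The order follows the other cells, from Dbp, the lowest, to Npas2, the highest; immune intervals are wide because few UMIs stand behind them.

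Dbp, an output transcription factor of the clock, had the lowest ratio among other cells, with 42.5 and 5.51 CPM, a ratio of 0.130 (0.112 to 0.15). Its ratio was 0.340 in the epithelium, 0.430 in immune cells and thus lowest among other cells. Nr1d1, the repressor REV-ERBα, went from 106.7 to 36.2 CPM there (ratio 0.340, 0.319 to 0.361) and from 86.0 to 47.8 CPM in the epithelium (ratio 0.556, 0.538 to 0.575). Immune Nr1d1 was 19.3 and 9.03 CPM, under the 20 CPM needed to be counted, with a ratio of 0.468 (0.310 to 0.691) whose interval reaches 1.5-fold. Per3, a clock repressor of the Period family, had ratios of 0.598 in the epithelium, 1.18 in immune cells and 0.414 among other cells. Ciart had low levels, 8.65 and 4.49 CPM among other cells (0.519), and 0.841 and 0.728 as epithelial and immune ratios. Npas2, on the activator side, was higher, at 27.6 and 58.5 CPM among other cells, 2.12-fold (1.98 to 2.28), and 1.45-fold (1.39 to 1.52) in the epithelium. Arntl, its relative, had a ratio of 1.47 among other cells, 1.15 in the epithelium and 1.02 in immune cells.

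Within Krt5-positive epithelial cells the clock list median was 0.14, and 1 of 20 members was past 1.5-fold, Nr1d1, with a ratio of 0.419 (0.386 to 0.454) against 0.556 in the whole epithelium. Within fibroblast-gated cells (at least 3 UMIs of Dcn and of Col1a1 or Col1a2, 2106 and 1804 cells) it was -0.67 with 6 members lower. In the dorsal pair Nr1d1 had ratios of 0.210, 0.109 and 0.176 and Dbp 0.215, 0.443 and 0.148. The hour of collection of each library is not given in the sources used here, and its part in these values was not tested.

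Glucocorticoid-responsive genes past the bound were higher among other cells. Of 25 members measured there, 23 reached 20 CPM. Past 1.5-fold were 6 higher, against 0.864% of genes open to the bound, and 0 lower. The list median was 0.35, against -0.02 in the epithelium and -0.03 in immune cells. Fkbp5 went from 54.2 to 104.1 CPM among other cells, 1.92-fold (1.83 to 2.02), from 47.2 to 115.4 CPM in immune cells, 2.44-fold (2.09 to 2.86), and from 8.30 to 13.1 CPM in the epithelium, 1.58-fold (1.46 to 1.71). Galnt15, a glycosyltransferase, had 36.2 and 88.6 CPM among other cells, 2.44-fold. Fkbp5 lay above 1 in each compartment of both regions, with dorsal ratios of 1.90, 3.93 and 1.62. The other members past the bound among other cells were Tsc22d3 (1.57), Ddit4, Lcn2 and Sult1a1, which is also one of the 7 shared genes. Many list members answer to other signals too: the metallothioneins Mt1 and Mt2, which bind zinc and copper, were lower in the epithelium (0.565 and 0.506) and had ratios of 1.28 and 1.35 among other cells. In the epithelium 2 members were higher (Sult1a1 and Lcn2) and 2 lower, the metallothioneins, and without thyroid cells 2 were higher and 0 lower (Mt1 0.734, Mt2 0.683). In Krt5-positive cells 5 were higher and 1 lower. In immune cells Fkbp5 and Sult1a1 were higher and Lcn2 lower.

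A small set of genes was shifted in the epithelium alone. Of the 4103 genes, 12 (0.292%) were lower and 1 (0.0244%) higher in the epithelium with a ratio at most 25% above or 20% below 1, or on the other side of 1, in both of the other compartments. Centred on the median gene, 3 were lower and 3 higher, so the excess of lower genes depends on the scaling. Without centring, the lower ones were Ifi27l2a, Mt1, Tns1, Cx3cr1, Aebp2, Cpq, Irgm1, Hbegf, Tspo, Mgst3, Jak2 and the eGFP reporter, and the higher one was Sulf2. Mgst3 and Jak2 fall outside the rule for named genes and are given to complete the list.

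**Figure D3:**
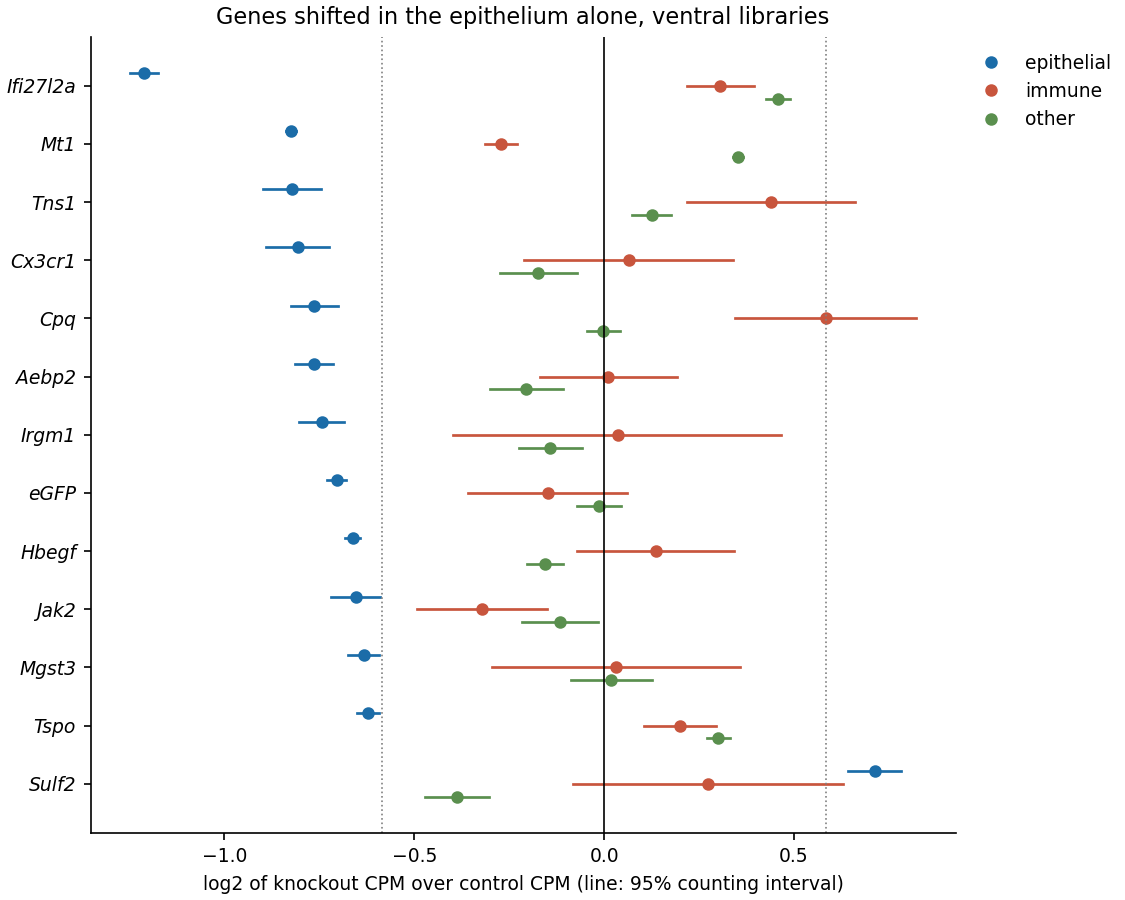
Knockout to control ratio (log2) of the 13 genes shifted in the epithelium alone, with 95% counting intervals as lines and 1.5-fold either way as dotted lines. Epithelial points of the 12 lower genes lie left of the dotted line, from a ratio of 0.432 for Ifi27l2a to 0.650 for Tspo, while their immune and other points lie near 1 or right of it.

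Ifi27l2a, an interferon-induced mitochondrial protein, stood apart. It went from 170.8 to 73.8 CPM in the epithelium, a ratio of 0.432 (0.421 to 0.443), and was above 1 elsewhere, at 419.5 and 518.7 CPM in immune cells (1.24) and 316.4 and 434.5 CPM in other cells (1.37). Relative to the ratio in other cells the epithelial ratio was 0.314 (0.304 to 0.325), and relative to immune cells 0.349 (0.327 to 0.373). Ifi27l2a is the only one of the 13 in this class under each of those 11 other ways of processing. In the dorsal pair its epithelial ratio was 1.20, on the other side of 1.

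The reporter eGFP marks the descendants of basal cells that expressed Ki67 after tamoxifen. It was at 290.7 CPM in control and 178.4 CPM in knockout epithelium, a ratio of 0.613 (0.603 to 0.624). Immune cells had 88.7 and 80.1 CPM (0.902, 0.780 to 1.04) and other cells 118.9 and 117.7 CPM (0.990, 0.951 to 1.03), in which the reporter should be silent. Thinned to 3000 UMIs, 43.9% (42.5 to 45.4) of control and 33.9% (32.1 to 35.8) of knockout epithelial cells had an eGFP UMI, against 22% and 20.8% of immune and 24.4% and 20.5% of other cells. Unthinned, the epithelial shares were 79.5% and 79.6%, at median depths of 22901 and 25056 UMIs, and 45.6% and 45.0% of immune cells had a UMI. In Krt5-positive cells the ratio of eGFP levels was 0.432. The dorsal epithelial ratio was 0.691.

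Some others of the 13 had ratios nearer to 1 without thyroid cells. Removing cells with at least 1% of UMIs from thyroglobulin left 4623 of 4899 control and 2723 of 2736 knockout epithelial cells. Without them the epithelial ratio of Cpq, a plasma glutamate carboxypeptidase, went from 0.589 to 0.898 and that of Tns1, a focal adhesion protein, from 0.566 to 0.803. Mt1 went from 0.565 to 0.734, none of the 3 meeting the bound any longer. Tspo (0.650 and 0.685), Mgst3 (0.645 and 0.660), Jak2 (0.636 and 0.638) and Hbegf had ratios of nearly the same size with and without those cells, and their intervals no longer reached the bound. Aebp2, a cofactor of Polycomb repression, stayed at 0.575, Cx3cr1, the fractalkine receptor, at 0.619 and Irgm1, an interferon-induced GTPase, at 0.601. Hbegf, a ligand of the EGF receptor, went from 456.6 to 288.5 CPM (0.632), and had a ratio of 0.684 without thyroid cells. Sulf2, which removes sulfate groups from heparan sulfate, was 20.7 and 33.9 CPM (1.64) and 1.67 without them.

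Interferon-stimulated genes had low ratios in the epithelium. All 34 measured members had a ratio under 1 there, where 24.5% of all genes lay above 1. Past 1.5-fold lower were 4, against 2.22% of genes open to the bound, and the list median was -0.79. Only 12 members reached 20 CPM there. The medians in immune and other cells were -0.16 and -0.22, with 1 lower member each, Cxcl10 and Ifit3. Isg15, a ubiquitin-like modifier, went from 46.2 to 20.3 CPM in the epithelium (0.440, 0.419 to 0.462), Iigp1 from 33.4 to 10.7 (0.320, 0.300 to 0.342) and Oasl2 from 31.6 to 16.0 (0.505, 0.477 to 0.535). Iigp1 is a GTPase of the family of Irgm1, which act on vacuoles that hold pathogens, and the promoters of Isg15 and Irgm1 printed above hold 3 and 2 copies of the response element core. Cxcl10, an interferon-induced chemokine, was lower in immune cells, from 191.4 to 76.0 CPM (0.397, 0.348 to 0.452). In Krt5-positive cells the interferon median was -0.59 and 32 of 33 members lay below 0.

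**Figure D4:**
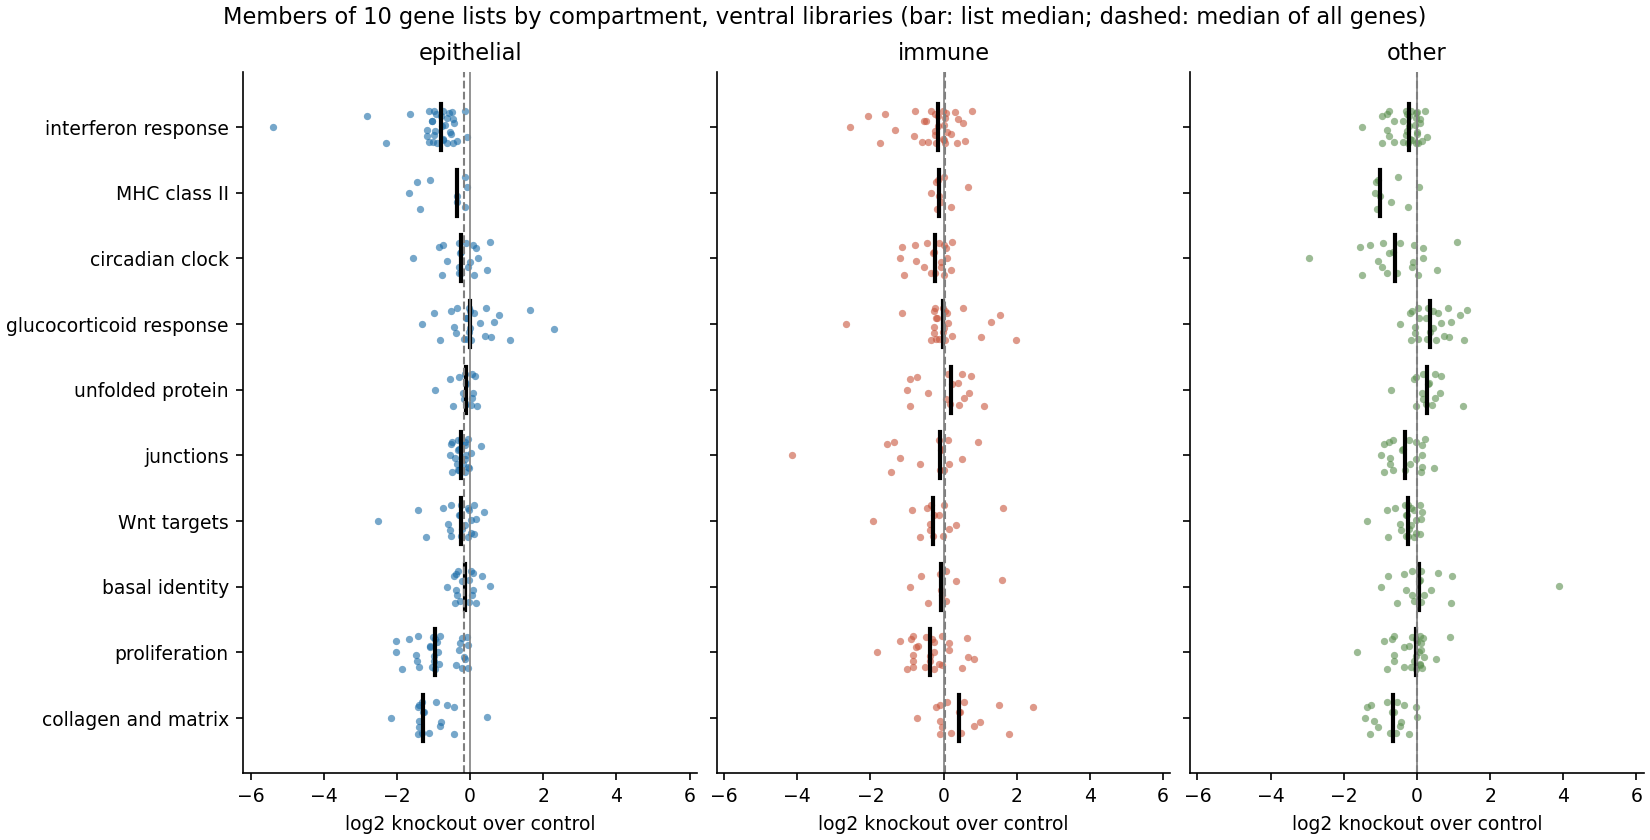
Members of 10 gene lists by compartment, each point 1 gene with at least 10 UMIs, on the log2 knockout to control scale. The 10% free RNA level was not applied here. Black bars are list medians and dashed lines the median of all genes with as many UMIs; the interferon and proliferation lists lie lowest against the dashed line among the epithelial lists without matrix genes, and the MHC class II, matrix and clock lists among other cells.

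Many genes shifted in the epithelium, 13 higher and 39 lower, were not measured or lay under the free RNA level in both other compartments. Another 1 higher and 36 lower genes were set aside as possible free RNA. A further 9 higher and 36 lower genes met neither these rules nor those of the shared and epithelium-alone genes. This remainder requires no shift in another compartment. The gene set aside on the higher side was Lipf, gastric lipase, at 21007 and 45170.0 CPM (2.15). Tg, thyroglobulin, and the mucin-associated trefoil factor Tff2 were among those set aside on the lower side, with epithelial ratios of 0.0324 and 0.469. The 13 higher genes not read in either other compartment were Bpifb9a, Lpo, Odam, BC037156, Cxcl5, Bpifb1, Sftpa1, Ccl28, Cxcl15, Sult1c1, Scgb3a1, Gdpd2 and Chga, a granule protein of neuroendocrine cells. Bpifb9a, a salivary-type BPI-fold protein, was at 0.999 and 44.4 CPM, 44.5-fold (37.8 to 52.7), and Lpo, lactoperoxidase, at 7.67 and 36.6 CPM, 4.78-fold. Odam was at 26.5 and 113.9 CPM, 4.30-fold, and the neutrophil chemokine Cxcl5 at 23.1 and 82.4 CPM, 3.56-fold. In Bpifb9a 10 cells held 84.2% of the knockout UMIs. Scgb3a1, an abundant secretoglobin, was 1.79-fold higher, from 24561 to 44011 CPM. Its ratios in immune and other cells, where it lay under the free RNA level, were 0.857 and 0.759.

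Among the 39 lower ones the proline-rich protein Prb1 was at 109.4 and 0.603 CPM, a ratio of 0.00551, and Prpmp5 at 92.5 and 0.563 CPM, 0.00609. Itln1, intelectin 1 of goblet cells, went from 545.4 to 10.0 CPM (0.0184, 0.0173 to 0.0196), and Chil4, a chitinase-like protein, from 31.1 to 1.77 CPM. Iyd, which recovers iodide in the thyroid, was at 49.3 and 4.40 CPM, a ratio of 0.0892. Itln1 was also lower in the dorsal epithelium (0.0197). Krt4, a keratin of luminal cells between basal and secretory, had a ratio of 0.389 and 128.3 and 49.96 CPM.

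Junction genes, the partners of β-catenin at the membrane, were not past the bound. Of 23 junction genes measured in the epithelium 0 were past it in either direction, with a median of -0.26 against -0.16 for all genes. Cdh1, E-cadherin, had 329.2 and 265.7 CPM (0.807, 0.795 to 0.819). Cldn4, a tight junction protein, had 415.7 and 331.1 CPM (0.796, 0.786 to 0.807). Of 23 Wnt target genes 10 reached 20 CPM in the epithelium. There 1 was lower, against 2.22% of genes open to the bound, and 0 higher, with a median of -0.24. The lower one was Wif1, a secreted Wnt inhibitor, from 23.3 to 4.05 CPM (0.174). Its epithelial level was under 10% of that in other cells, where it was lower as well (0.567). Myc, a growth regulator, was at 131.1 and 92.1 CPM in the epithelium (0.702). Of 18 basal identity genes 15 reached 20 CPM in the epithelium. Only 1 was lower there, against 2.22% of genes open to the bound. This was Krt15, from 1205 to 779 CPM (0.647). Trp63 stood at 36.7 and 41.1 CPM (1.12), and Krt5 at 214.0 and 182.3 CPM (0.852).

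Proliferation genes lay low in the epithelium but at levels too low for the bound. All 30 had ratios under 1 with a median of -0.96, where 24.5% of all genes lay above 1, and 0 were past 1.5-fold among the few that reached 20 CPM. Mki67, the antigen Ki67, went from 3.34 to 1.20 CPM (0.359, 0.291 to 0.438) and Ube2c, which drives mitotic exit, from 5.95 to 1.46 CPM (0.246, 0.205 to 0.293). Among Krt5-positive cells the median was -0.05. Medians of -0.38 and -0.03 were found in immune and other cells.

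Other cells had lower matrix and cartilage genes. Of 18 collagen and matrix genes 9 were lower and 0 higher there, median -0.65. All 18 reached 20 CPM, and 2.18% of genes open to the bound were lower. Col1a1 went from 1038 to 423 CPM (0.408, 0.40 to 0.415), Col3a1 from 1002 to 373.6 CPM (0.373) and the cartilage collagen Col2a1 from 394.7 to 71.6 CPM (0.181, 0.174 to 0.189). Col1a2 (ratio 0.421) had a UMI in 65.4% of control and 69.8% of knockout other cells, and at least 3 in 56.8% and 52.0%. Col2a1 had a UMI in 11.7% and 6.13%, and at least 3 in 8.10% and 4.22%. The matrix list was low in fibroblast-gated cells as well, median -0.63 with 8 members lower, although that gate itself uses Dcn and collagen UMIs. In the epithelial sums 5 of 18 matrix genes were lower as well, against 2.22% of genes open to the bound, and 6 reached 20 CPM. In the immune sums 0 of 17 were lower, and Dcn was higher. The summed control level of the list was 888.2 CPM in the epithelium against 21622 CPM in other cells. The dorsal ratio of Col1a1 among other cells was 0.337.

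Markers of other cell types were lower among other cells too. Of 7 multiciliated markers 4 reached 20 CPM, and 4 were lower, against 2.18% of genes open to the bound. Dynlrb2, a dynein light chain, was 1 of them, from 31.6 to 7.73 CPM (0.245, 0.215 to 0.278). The antigen-presenting genes Cd74 and H2-Aa had ratios of 0.478 and 0.493 there, against 0.946 and 0.867 in immune cells, where they are expressed at 27733 and 8376 CPM in the control. The MHC class II list of 9 genes had a summed control level of 391.1 CPM in other and 48979 CPM in immune cells. Among fibroblast-gated cells its median was -0.15, with 0 of 8 members lower. Markers of lymphatic vessels were mixed. Lyve1, a hyaluronan receptor, was at 131.3 and 309.9 CPM (2.36, 2.29 to 2.44), and Reln (1.82) and Mmrn1 (1.67) were also past 1.5-fold higher. These were 3 of 6 markers, all at 20 CPM or more, against 0.864% of genes open to the bound. The most abundant marker, the chemokine Ccl21a, had a ratio of 0.929, the lineage factor Prox1 0.930 and Flt4 1.09, and the summed level of the 6 had a ratio of 1.01. Dpep1, a membrane dipeptidase, was at 26.1 and 87.5 CPM (3.36, 3.14 to 3.59). Ddit4, an mTOR inhibitor induced by stress and glucocorticoids, was limited to other cells at 105.3 and 192.3 CPM (1.83), as was Fdps of the mevalonate pathway (33.9 and 54.7 CPM, 1.61). Of 6 genes lower in other cells alone, Hmox1, haem oxygenase 1, stood at 344.7 and 194.3 CPM (0.564).

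Macrophage markers were higher in the immune sums. All 8 reached 20 CPM and had ratios over 1, where 54.3% of all genes did. Past 1.5-fold higher were 4, against 1.75% of genes open to the bound. These were C1qa at 1275 and 2207 CPM (1.73, 1.68 to 1.79), C1qb, C1qc and the scavenger receptor Cd163 at 128.1 and 232.9 CPM (1.82, 1.64 to 2.01). C1qa had a UMI in 33.9% of control and 45.0% of knockout immune cells. No T cell marker of 7 was past it, as Cd3e at 162.7 and 179.4 CPM (1.10). Gzma, granzyme A of cytotoxic lymphocytes, was at 119.1 and 0.753 CPM (0.00632), from 11 and 2 cells, and Ccl5, a chemokine of the same cells, at 380.2 and 47.4 CPM (0.125, 0.107 to 0.145). Ccr7, the homing receptor of migratory dendritic cells, was at 122.4 and 31.9 CPM (0.260). Limited to immune cells were 12 higher and 3 lower genes, with Ecm1 at 155.1 and 433.7 CPM (2.80, 2.57 to 3.04) and Xbp1, a secretory stress factor, at 73.2 and 158.1 CPM (2.16).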

How the data were processed

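The deposited files hold unnormalized UMI counts of 33697 features, eGFP among them, which the authors made with Cell Ranger 10.0.0 on GRCm39, per the submitters' processing notes, from 10x GEM-X 5′ libraries of papain-dissociated trachea, per the labels' protocols. The annotation release is not stated there. The ventral libraries held 204278955 (control) and 144851737 (knockout) UMIs. Barcodes were filtered and gated as described, counts summed per compartment and expressed as CPM, and ratios given conditional exact binomial intervals at 95% (scipy 1.17.1), ratios of ratios log-scale intervals; both cover counting error only. Cells are not replicates and no test was run. Doublets were kept; Scrublet (scanpy 1.11.5) at 0.4% per 1000 barcodes was an alternative, since its automatic threshold called 9 and 14 cells. List medians used log2 ratios with 0.5 UMIs added to each count. The members and lists were chosen with earlier results of these data known. Named genes are, each way, the 10 of each epithelial or shared class furthest by interval bound, the 3 limited to immune or to other cells, genes past 1.5-fold on opposite sides, up to 4 members of each of 51 lists (25 of pathways, 26 of cell types), Ctnnb1, eGFP and the gate genes. Mitochondrial, ribosomal, haemoglobin, immunoglobulin and sex-linked genes were not ranked, and predicted genes only within the top 3 of a class. The calling rule was run on simulated sums with counting error only. These held no differences between cells, animals or libraries and no free RNA, so the rule was not tested against those. Mgst3, Jak2, Mt2, Ciart, Arntl, Tsc22d3, Tef, Per2, Cry2, Nr1d2, Bhlhe40, Ifit3, Cdh1, Prox1, Flt4, Gdpd2, BC037156, Foxj1, Bpifa1 and Lyz2 fall outside the rule for named genes and were named after their values were seen.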

Additional observations from a re-analysis of the deposited data

Results flagged for a closer look

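Genes past 1.5-fold in opposite directions in 2 compartments were picked out without use of the free RNA level. The difference was not tested. Lcn2, a siderophore-binding defence protein, was higher in the epithelium (6.50 and 32.1 CPM, 4.94-fold) and among other cells (2.24-fold) and lower in immune cells (28.9 and 13.1 CPM, 0.452). The matrix genes Mfap5, Mgp and Dcn were lower in the epithelium (0.501, 0.501 and 0.648) and higher in immune cells (2.5, 2.54 and 2.85). Among other cells, where they are far higher, their ratios were 1.00, 1.13 and 1.01. Il31ra was past 1.5-fold lower in all 3 ventral and higher in all 3 dorsal compartments (4.47, 3.74 and 4.14); this difference between regions was not tested either.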

How the results depend on the processing

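Each figure here is a value with no test, and the cause of a change was not tested. No paired analysis was possible because each group is 1 library. Counts of genes shifted in all 3 compartments (7) and in the epithelium alone (13) depend on thresholds. A 2-fold bound gave 2 and 1, with 70, 66 and 69 genes shifted in epithelial, immune and other cells (154, 191 and 215 at 1.5-fold). A minimum of 10 UMIs gave 18 and 61, with 1202, 479 and 828. A bound of 25% above or 20% below 1, chosen after seeing the data, gave 14 and 128, with 559, 471 and 624. A free RNA level of 0% gave 13 and 26, and one of 25% gave 4 in all 3 compartments. Centring on the median gene left 6 in the epithelium alone (3 higher and 3 lower), 4 of them among the 13. Narrow gates kept 3 of the 7 shared genes and 5 of the 13, and removal of thyroid cells 6 and 6.

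The epithelial Ctnnb1 ratio was 0.882 centred, 0.822 in narrow gates and 0.854 as a mean over cells. Epithelial shares of control and knockout were 44.4% and 37.2% with at least 2 UMIs of the gate gene and 38.5% and 30.2% thinned; immune shares were 4.76% and 4.91%, and 4.99% and 4.80%. Other shares were 56.3% and 64.7% thinned, and 41.9% in the control with the stricter barcode filter. Without thyroid cells the control had 49.0% epithelial and 44.2% other cells.

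In narrow gates the ratio turned direction for Ager (1.09), Calca (0.157), Chga (0.0892), Cxcl13 (0.0192), Gdf15 (1.33) and Sult1c1 (0.457) in the epithelium, Ccr7 (18.1), Fmo2 (0.543), Gramd3 (1.22), Hspb1 (0.677) and Lcn2 (1.06) in immune cells, and Cbr2 (1.08), Fabp4 (1.10) and Myh11 (0.444) among other cells. The immune medians of the proliferation and matrix lists turned to 0.44 and -1.50 there. With doublets removed the immune matrix median was -0.34 and immune Fmo2 0.885. Without thyroid cells epithelial Ager was 1.29 and Grp 1.23.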
